A study of Mus musculus with 4 samples.

Results

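The quantity described here is how far the response to neural differentiation differed between mouse embryonic stem cells with and without the de novo DNA methyltransferases. For each gene the change from day 0 to day 6 was taken as a log2 ratio in wild-type cells (the wild-type response) and in knockout cells (the knockout response), and the first was subtracted from the second (the response difference). A difference of 1 means that the change in knockout cells was 2-fold above that in wild-type cells, and a difference of -1 that it was 2-fold below. All 14713 of 23235 listed gene symbols that reached 1 FPKM (fragments per kilobase of transcript, scaled by a depth value of each library) in any library were used.

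The study sequenced 4 libraries: wild-type stem cells on day 0 (WT_ES), wild-type cells on day 6 of differentiation, labelled neural progenitors (WT_NP), and the same days for cells labelled as a double knockout of Dnmt3a and Dnmt3b (DKO_ES and DKO_NP). The stem cells were of strain 129S4/SvJae, with the J1 line as the stated background, and were grown in serum with leukemia inhibitory factor, on feeder cells in earlier passages and on gelatin later. Differentiation consisted of 4 days as embryoid bodies and 2 days in retinoic acid. Each group is 1 library, so biological spread could not be estimated, no test was possible, and genotype cannot be told apart from any other difference between the 2 cell lines or their cultures. Intervals given below are 95% intervals from read counting error only. The number of clones and passages behind each genotype is not given in the sources used here.

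Dnmt3a and Dnmt3b place new methyl groups on CpG dinucleotides, chiefly as pluripotent cells leave the stem cell state, and Dnmt1 then copies the pattern at each division. Germline genes with CpG-rich promoters, imprinted genes and repeated elements are the best known places where promoter methylation goes with silence. Embryoid bodies in serum form cells of all germ layers, and retinoic acid favours neural and posterior fates, so the response of a bulk culture mixes gene regulation with cell composition. In such bulk libraries a lower share of one cell type and less RNA of its genes per cell cannot be told apart, which holds for every gene group below.

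Total RNA was depleted of ribosomal RNA before sequencing. Genes of 1 kb or more held an estimated 38.3 to 46.5 M reads per library, whereas the size of the FPKM unit, read from the steps between low values, differed up to 2.63-fold between libraries. Small RNA genes carried 75.6% to 89.6% of all FPKM. Columns were therefore divided by median-ratio factors of 1.32 (WT_ES), 0.671 (WT_NP), 1.25 (DKO_ES) and 0.908 (DKO_NP), and levels below are these scaled FPKM. Dnmt3a stood at 26.7 and 25.7 scaled FPKM in wild-type cells on day 0 and day 6, and at 9.82 and 4.56 in knockout cells. Dnmt3b stood at 106 and 14.9 in wild-type cells and at 11.1 and 5.75 in knockout cells. On each day the knockout level was below that of wild type, and neither gene was absent. Whether the reads lie outside the deleted parts cannot be seen in a gene-level table.

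The response was shared in outline and differed in size. Across genes the wild-type and knockout responses, which share no library, had a Pearson correlation of 0.64 and a Spearman correlation of 0.73 (14713 genes, which are not independent replicates). The response difference had a median of 0.00, quartiles of -0.39 and 0.32, and 5th and 95th percentiles of -1.35 and 0.92. A difference of 1 or more was found for 634 genes (4.31% of those measured) and a difference of -1 or less for 1296 (8.81%), so 32.8% of the genes past either limit lay on the higher side. With the columns as deposited the counts were 1735 and 709, or 71.0% on the higher side, because the median of all genes then moved to 0.43. The scaling therefore decides the balance of the 2 directions. Of the genes for which reads could be estimated, 622 of 624 on the higher side and 1253 of 1259 on the lower side had a counting interval clear of 0. Small RNA genes made up 206 of the 1296 and 47 of the 634. Just inside the limits lay Prkcz (1.004) and Ocln (-1.001), and just outside lay Ptrf (0.993) and Stx16 (-0.997).

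**Figure D1:**
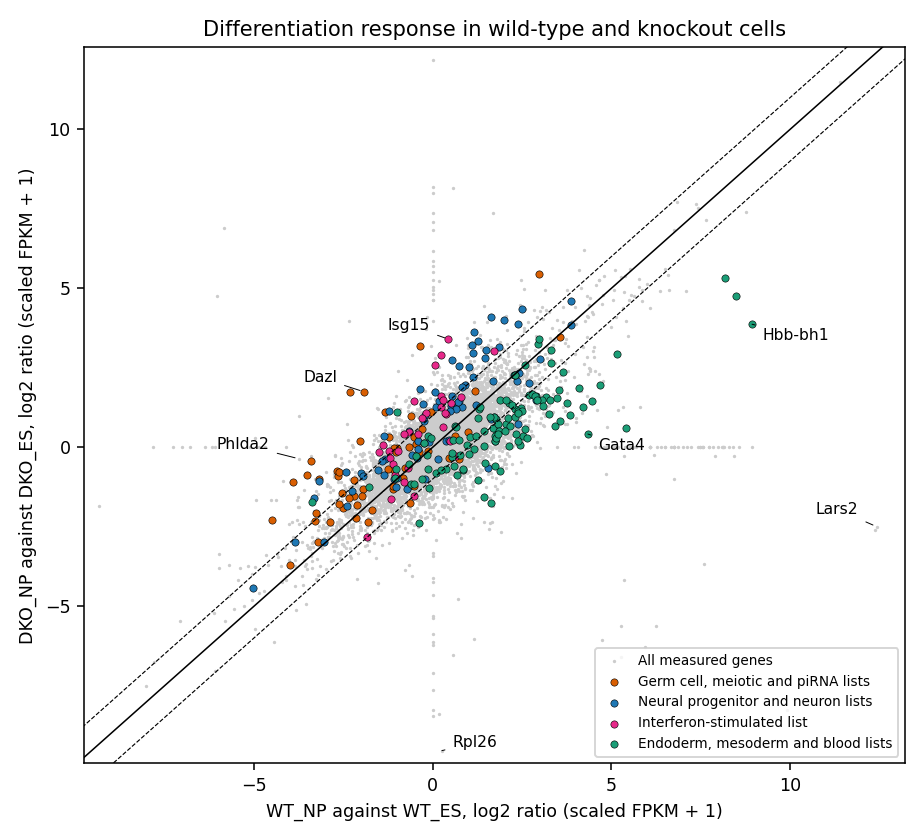
Wild-type response (x axis) against knockout response (y axis), both as log2 ratios of scaled FPKM + 1, for all measured genes (grey) and members of 4 groups of lists (colours); 1 library per condition. The solid line marks equal responses and the dashed lines a response difference of 1 and -1; germline, neural and interferon-stimulated genes lie mostly above the line, and endoderm, mesoderm and blood genes mostly below it.

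Genes that were higher on day 6 in wild-type cells and little changed in knockout cells formed the largest class. Of the 1296 genes on that side, 625 were 2-fold or more higher on day 6 in wild-type cells and within 2-fold in knockout cells, 255 were within 2-fold in wild-type cells and 2-fold lower in knockout cells, and 40 were higher in wild-type and lower in knockout cells. Of the 634 genes on the higher side, 201 were within 2-fold in wild-type and 2-fold higher in knockout cells, 165 were 2-fold lower in wild-type and within 2-fold in knockout cells, and 13 were lower in wild-type and higher in knockout cells. Most of these genes differed between genotypes on day 6 rather than on day 0. On the lower side 842 were 2-fold lower in knockout cells on day 6 only (7.43% of all genes were 2-fold lower that day) and 133 were 2-fold higher on day 0 only (2.37% of all genes). On the higher side 366 were 2-fold higher on day 6 only (4.4% of all genes) and 70 were 2-fold lower on day 0 only (1.06%). The remainder combined smaller differences on both days or moved on both. The 2308 genes (15.7%) that were 2-fold or more higher in the wild-type response had a median of 1.49 there and 0.94 in knockout cells. Genes picked by a large response in 1 genotype tend to be smaller in the other by that choice alone, so the reverse choice was also made. The 1657 genes (11.3%) picked by the knockout response had a median of 1.52 there and 1.30 in wild-type cells. Genes 2-fold lower in the wild-type response (1592 or 10.8%) had medians of -1.43 and -1.14, and those 2-fold lower in the knockout response (1570 or 10.7%) had medians of -1.43 in knockout and -1.19 in wild-type cells.

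**Figure D2:**
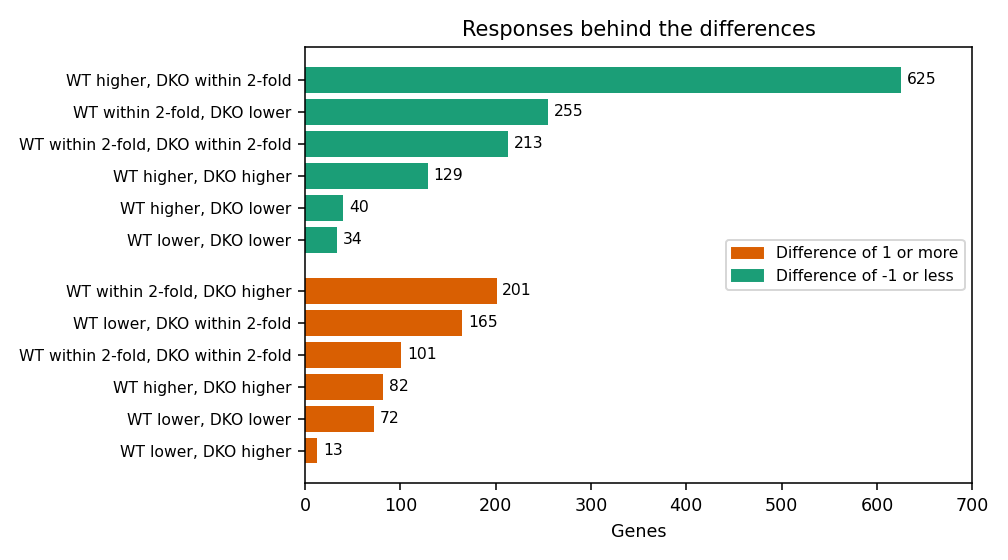
Number of genes with a response difference of 1 or more (orange) and -1 or less (green), split by whether the gene was 2-fold higher, within 2-fold or 2-fold lower on day 6 in each genotype. The longest bar is the 625 genes that were higher in wild-type and within 2-fold in knockout cells.

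The list of germ cell regulators, as drawn up, had the highest median difference of the 47 gene lists examined, at 1.53. Of 21 measured members 12 were past 1 and 1 was past -1, beside 4.31% and 8.81% of all genes. These shares of all genes are the background for every list count below. The list also holds the ribosomal protein gene Rpl10l (2.20) and the tubulin genes Tuba3a (2.64) and Tuba3b (1.58), which are not regulators and were past 1. Without them the middle members are Kit (0.85) and Prdm14 (1.20). The median would then lie below the 1.31 of the replication-dependent histone list. Promoters are shown for 2 germline genes, the RNA-binding germ cell factor Dazl of this list (difference 3.68) and the placental and germline gene Tex19.1 of the piRNA list (2.96), because CpG is the substrate of the deleted enzymes. The sequences are the 250 bases before the annotated start (RefSeq, GRCm38.p6, which is not the build of the deposited values), 5' to 3' on the gene's strand, with each CpG in capitals. They hold 20 and 15 CpGs, against a median of 6 and quartiles of 2 and 16 over 27025 promoters. Methylation was not measured in these libraries.
Dazl, chr17:50293621-50293870, minus strand: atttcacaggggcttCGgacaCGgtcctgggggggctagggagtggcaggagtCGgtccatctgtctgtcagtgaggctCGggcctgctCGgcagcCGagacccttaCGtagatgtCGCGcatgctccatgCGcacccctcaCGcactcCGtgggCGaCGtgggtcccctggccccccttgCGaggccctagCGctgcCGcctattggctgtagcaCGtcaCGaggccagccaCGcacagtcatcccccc
Tex19.1, chr11:121145893-121146142, plus strand: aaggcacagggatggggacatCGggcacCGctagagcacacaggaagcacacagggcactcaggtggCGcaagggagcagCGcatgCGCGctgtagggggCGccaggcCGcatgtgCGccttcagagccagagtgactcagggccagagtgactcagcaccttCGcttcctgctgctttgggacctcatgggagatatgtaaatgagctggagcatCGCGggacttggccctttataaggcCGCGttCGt

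Germ cell transcription factors and RNA-binding proteins moved apart between the genotypes. Sohlh2, a basic helix-loop-helix factor of early germ cells, stood at 12.5 and 1.73 scaled FPKM in wild-type cells on day 0 and day 6, and at 17.2 and 59.5 in knockout cells. Its difference of 4.04 (3.81 to 4.28) was the highest of all named genes without a 0. Dazl stood at 6.99 and 1.09 in wild-type and at 17.6 and 61.3 in knockout cells, a difference of 3.68 (3.48 to 3.88). Both genes thus became lower in wild-type cells and higher in knockout cells, and DKO_NP was the highest of the 4 libraries. Sohlh1, the partner of Sohlh2, was under 0.4 in 3 libraries and at 8.43 in DKO_NP (difference 3.52, 3.16 to 3.89). It reached 1 FPKM in DKO_NP alone and was thus counted only through the library in which it was high. Dmrt1, a factor of testis and germ cell identity, stood at 15.7 and 5.60 in wild-type and at 12.9 and 28.8 in knockout cells (2.44). Stra8, the retinoic acid-induced gene of meiotic entry, was higher on day 6 in both genotypes, at 4.62 and 42.9 in wild-type and 7.84 and 388 in knockout cells (2.49). Tfap2c, a factor of primordial germ cells and trophoblast, stood at 17.0 and 3.38 against 13.4 and 15.4 (2.22). Ddx4, a germ cell helicase, stood at 13.4 and 1.22 in wild-type cells, was alike in DKO_ES (a day 0 genotype difference of -0.04) and stood at 7.33 in DKO_NP (1.94), so that it became lower in both genotypes and less so in knockout cells. Dppa3 was already different on day 0, at 17.0 against 66.6, and its response difference of 0.32 had an interval from -0.03 to 0.66. Nanos3 was the member past -1 (-1.11).

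The piRNA pathway silences transposons in germ cells, and 7 of its 16 measured genes were past 1 and 1 was past -1 (median 0.91). Tex19.1 stood at 48.9 and 3.71 scaled FPKM in wild-type cells and at 75.1 and 55.0 in knockout cells. Mael stood at 28.5 and 0.940 against 24.1 and 10.8 (2.83). Mov10l1, a helicase that prepares piRNA precursors, stood at 8.46 and 0.515 against 14.2 and 7.07 (1.73). For all 3 the wild-type day 6 library was the low one. Pld6, a mitochondrial enzyme of the same pathway, went the other way (-1.12). Of 23 measured meiotic chromosome genes 4 were past 1 and none past -1 (median 0.59): Mael, which is also in the piRNA list, Syce1 (2.18), Tex11 (1.84) and Tex12 (1.07). The recombinase gene Dmc1 (0.36), the histone methyltransferase gene Prdm9 (-0.51) and the synaptonemal gene Sycp1 (-0.80) stayed inside the limits. The median knockout response of these meiotic genes was -1.23, close to the -1.11 in wild-type cells. Tex14, a gene of germ cell bridges, was listed at 0 in WT_NP and at 5.02 in DKO_NP (19.9 and 17.9 on day 0), and its difference of 2.74 depends on the pseudocount. The testis-expressed genes Rbmxl2 (56.7 and 1.51 in wild-type, 41.5 and 12.5 in knockout cells) and Rpl39l (48.5 and 1.68, 76.7 and 35.9) had differences of 2.87 and 3.13. Reads of Rpl39l and of Rpl10l (2.20) may be shared with related ribosomal protein genes.

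X-linked reproductive genes split in both directions. Of 16 measured Rhox and Xlr genes 4 were past 1 and 4 past -1 (median -0.09). Rhox6 stood at 3.28 and 3.11 scaled FPKM in wild-type cells and at 8.13 and 82.7 in knockout cells (difference 3.26, 2.83 to 3.68). Rhox9 stood at 4.41 and 2.61 against 6.34 and 53.7 (3.48). These 2 homeobox genes were high in DKO_NP alone. Rhox2b was listed at 0 in both wild-type libraries and stood at 8.22 and 1.52 in knockout cells (-1.87), and Xlr5c was likewise listed at 0 in wild-type cells and at 4.45 and 0.803 in knockout cells (-1.60). Their knockout level was thus already above wild type on day 0 and lower on day 6. Members of these clusters are close copies of each other, and the counting of shared reads is not given in the sources used here. A list of 12 measured further testis genes holds 11 X-linked genes and by mistake the autosomal Zfp42. Of the 12, 3 were past 1 and 1 past -1 (median -0.47), and Zfp42 (2.16) is 1 of those past 1. Without it the middle member is Usp26 (-0.55). Nxf3, an RNA export factor, stood at 1.37 and 10.1 in wild-type and at 13.4 and 8.86 in knockout cells (-2.77). Mageb16 stood at 25.3 and 2.29 against 29.4 and 16.7 (2.22). Tsx, an X-linked testis gene beside the X-inactivation centre, stood at 1.97 and 0.885 against 17.2 and 0.379 (-3.07). Of 560 X-linked genes 6.25% were past 1 and 11.6% past -1, beside 4.31% and 8.81% of all genes.

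**Figure D3:**
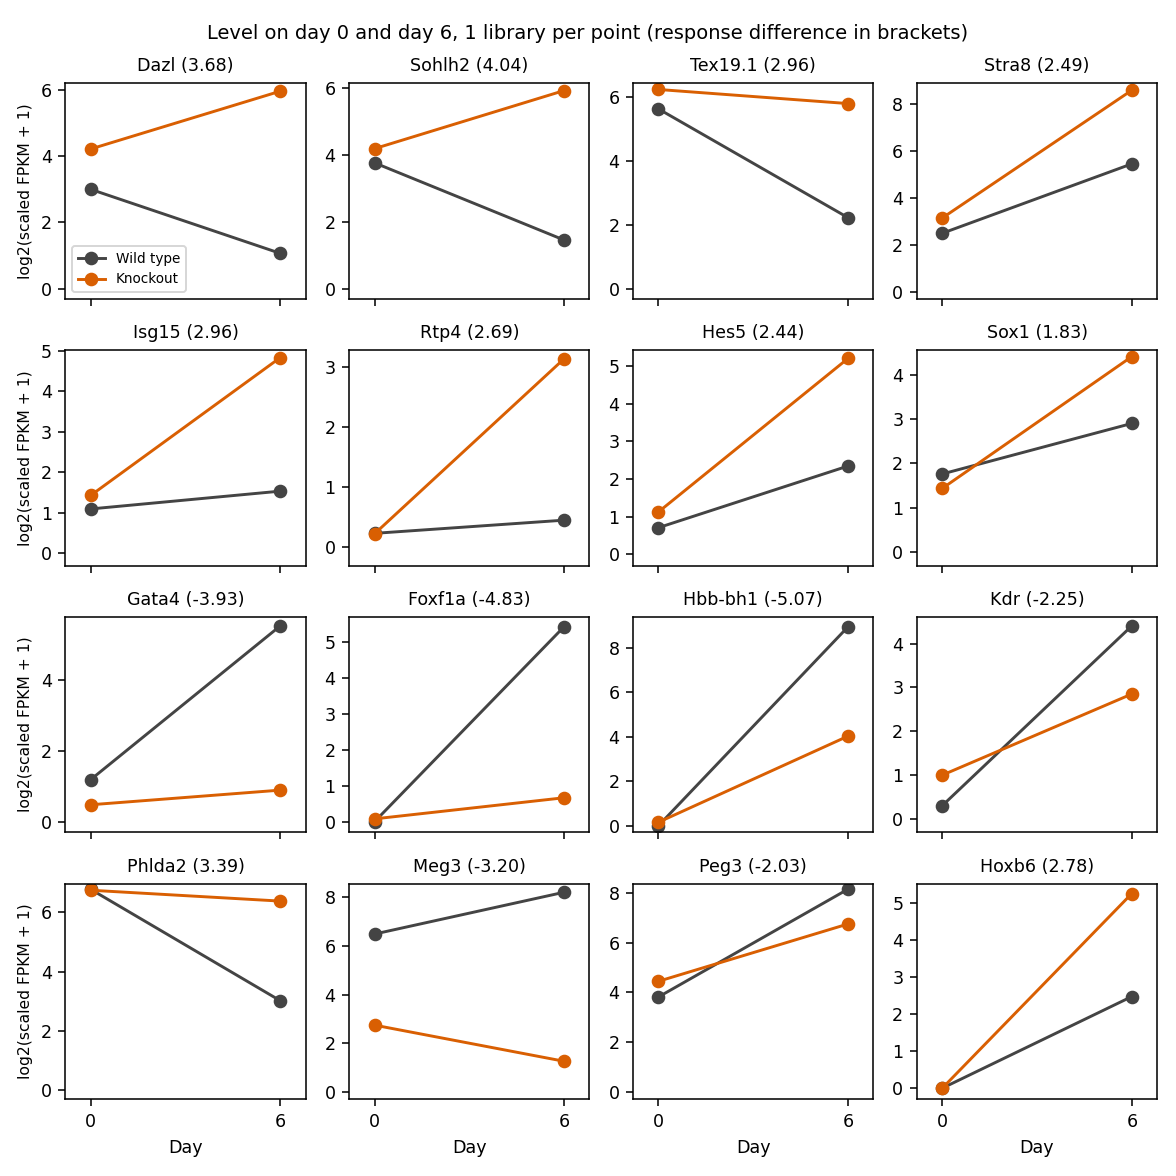
Level of 16 genes on day 0 and day 6, as log2(scaled FPKM + 1), in wild-type (grey) and knockout (orange) cells, 1 library per point, with the response difference in brackets. The lines of Dazl and Sohlh2 cross in direction, those of Isg15 and Rtp4 part only on day 6, and those of Gata4 and Foxf1a stay near the floor in knockout cells.

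Exit from pluripotency was seen in both genotypes and went less far in knockout cells for some genes. The median response of 18 core pluripotency genes was -3.86 in wild-type and -2.94 in knockout cells, 7 were past 1 and none past -1 (median difference 0.52). Pou5f1, the central pluripotency factor, stood at 824 and 16.5 scaled FPKM in wild-type and at 921 and 25.7 in knockout cells, and its difference of 0.45 (0.34 to 0.57) did not reach the limit. Nanog stood at 193 and 8.55 against 246 and 21.6 (0.89). Utf1 (179 and 2.49 against 85.0 and 5.60) had a difference of 1.99, part of which was its lower day 0 level in knockout cells. Sox2, which serves stem cells and neural progenitors alike, stood at 192 and 18.1 against 190 and 61.9 (1.73). Of 18 naive pluripotency genes 7 were past 1 and none past -1 (median 0.72). Zfp42, also called Rex1, stood at 470 and 6.50 against 515 and 35.7 (2.16), Spp1 at 170 and 11.4 against 227 and 75.4 (2.21), and the Krüppel-like factor gene Klf2 at 118 and 6.35 against 114 and 20.8 (1.62). Each of these was far below its day 0 level in both day 6 libraries and higher in DKO_NP than in WT_NP. Of 12 measured genes of the 2-cell-like state Zscan4c (1.24) and Tmem92 (1.87) were past 1. Dnmt3l, the catalytically inactive partner of both enzymes, stood at 112 and 2.58 against 200 and 13.6 (1.20). Dnmt3b itself had a difference of 1.91 because its wild-type level was high on day 0 only. The Polycomb complexes, 28 genes, had none past 1 and only Ezh1 (-1.07) past -1.

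Interferon-stimulated genes encode antiviral proteins that are switched on by factors bound to promoters at interferon response elements. Of 33 measured members 15 were past 1 and 1 was past -1 (median 0.87), beside 4.31% and 8.81% of all genes. The median was -0.30 for the wild-type and 0.42 for the knockout response. Among the members past 1, Rtp4, Oasl2, Ifih1, Rsad2 and Oas1b reached 1 FPKM in DKO_NP alone. They were thus counted only through the library in which they were high. The promoters of 3 genes on the higher side are shown because they hold the core of such an element. Each is the 120 bases before the annotated start (RefSeq, GRCm38.p6), 5' to 3' on the gene's strand, with matches on either strand to GAAA, any 2 bases and GAAA in capitals. In the 250 bases before the start, 821 of 27025 promoters (3.04%) hold such a match.
Isg15, chr4:156200819-156200938, minus strand: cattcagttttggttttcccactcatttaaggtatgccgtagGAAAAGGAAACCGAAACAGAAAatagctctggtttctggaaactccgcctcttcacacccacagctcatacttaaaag
Gbp3, chr3:142559924-142560043, plus strand: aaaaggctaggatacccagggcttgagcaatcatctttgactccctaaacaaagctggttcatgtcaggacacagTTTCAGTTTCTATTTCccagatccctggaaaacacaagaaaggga
Gbp7, chr3:142530216-142530335, plus strand: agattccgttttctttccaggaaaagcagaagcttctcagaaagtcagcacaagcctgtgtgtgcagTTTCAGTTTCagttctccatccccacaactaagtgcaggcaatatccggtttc
Isg15 holds 3 overlapping matches that begin between 78 and 66 bases before the start, Gbp3 holds 2 at 45 and 39 bases, and Gbp7 holds 1 at 53 bases. A match describes these letters and is no evidence of binding. Only 26 of the 33 members have an entry in the promoter table, so no share is given for the list.

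Several interferon-stimulated genes were low in 3 libraries and higher in DKO_NP. The summed level of the whole list was 594 in WT_NP and 705 in DKO_NP, so the list's total did not part as these genes did. Isg15, a ubiquitin-like modifier, stood at 1.14 and 1.89 scaled FPKM in wild-type cells and at 1.69 and 27.4 in knockout cells (difference 2.96, 2.33 to 3.59). Rtp4 stood at 0.176 and 0.369 against 0.171 and 7.77 (2.69), and Oasl2, a member of the oligoadenylate synthetase family, at 0.608 and 0.676 against 0.334 and 7.07 (2.54). Ifi27l1, a further gene of an interferon-inducible family, stood at 0.513 and 0.316 against 0.908 and 24.1 (3.92, 3.48 to 4.36). Ifih1, which senses double-stranded RNA, stood at 0.0280 and 0.197 against 0.0439 and 1.50 (1.04). Gbp7, Gbp3, Gbp1 and Gbp2, which encode guanylate-binding proteins, lie next to each other on chromosome 3 and all 4 were past 1 (1.88, 1.99, 1.65 and 1.47). Members of the list did not move as 1 block. Ifitm2 was past -1 (-1.02), and Ifitm1, a stem cell gene as well, stood at 321 and 89.2 against 667 and 93.4 (-0.99). Ifitm3 was on the higher side (1.09). In the pathway that loads peptides on MHC class I molecules, 5 of 18 genes were past 1 and 1 past -1 (median 0.45). H2-D1 stood at 12.9 and 18.4 against 8.47 and 43.7 (1.76), H2-Q7 had a difference of 1.57 and the immunoproteasome gene Psmb8 one of 1.40, whereas the light chain gene B2m had one of 0.05 and H2-T23 one of -1.34. The class I genes are close copies of each other.

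Genes of neural progenitors and neurons were higher in the knockout response. Of 34 measured progenitor genes 15 were past 1 and 1 past -1 (median 0.77, with 1.10 for the wild-type and 2.07 for the knockout response). Sox1, an early factor of the neural plate, stood at 2.39 and 6.46 scaled FPKM in wild-type cells and at 1.71 and 20.2 in knockout cells (1.83, 1.61 to 2.05). Sox3 stood at 3.24 and 5.19 against 2.53 and 22.8 (2.21). Hes5, a Notch target that keeps progenitors undifferentiated, stood at 0.631 and 4.08 against 1.18 and 35.9 (2.44). Fabp7, which binds fatty acids in radial glia, was listed at 0 in WT_ES, and stood at 1.23, 0.251 and 14.5 in WT_NP, DKO_ES and DKO_NP (2.48). Olig3, a factor of the dorsal neural tube, was listed at 0 in DKO_ES and stood at 1.18 and 8.26 on day 6 in wild-type and knockout cells (2.12). Before scaling, Fabp7 and Olig3 reached 1 FPKM in DKO_NP alone and were thus counted only through the library in which they were high. Not every defining marker followed. Pax6 stood at 19.6 in WT_NP and 38.4 in DKO_NP and was already higher in DKO_ES on day 0 (by 1.23), which left a response difference of -0.29 (-0.40 to -0.18), and Lix1 had one of -2.20. Nes, the intermediate filament of progenitors, stood at 12.8 and 28.8 against 13.8 and 66.9 (1.09).

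Of 24 measured neuron genes 13 were past 1 and none past -1 (median 1.03), although the median response was below 0 in both genotypes (-0.71 and -0.22). Tubb3, the neuronal tubulin, stood at 44.7 and 7.52 against 57.4 and 32.7 (1.63). Ina, a neurofilament gene, stood at 19.7 and 1.26 against 15.5 and 6.96 (2.14). For Tubb3 and Ina, which had sizeable levels in the stem cells, the difference was thus a smaller loss rather than a gain. Cntn2, an axonal adhesion molecule, stood at 2.17 and 1.50 against 1.82 and 8.93 (2.16), and Rtn1 at 4.77 and 1.47 against 1.61 and 4.80 (2.37), so that these 2 were higher on day 6 in knockout cells. Doublecortin (Dcx), a marker of newborn neurons, had a difference of 0.44, Snap25 one of -0.54 and Gap43 one of -0.76. Among 21 measured proneural and neuronal fate factors 7 were past 1 and 3 past -1 (median 0.56). Neurog1 stood at 0.0990 and 1.63 against 0.128 and 10.3 (2.07), Pou3f2 at 0.0953 and 3.36 against 0.100 and 16.5 (2.00), and Nhlh2 at 0.0153 and 0.698 against 0.0593 and 5.27 (1.82). Nhlh2 reached 1 FPKM in DKO_NP alone and was counted only through that library. Isl1 (-1.53), Lhx1 (-1.42) and Onecut2 (-1.64), which also act in mesoderm or endoderm, were the 3 on the other side. In the Notch pathway 6 of 22 genes were past 1 and none past -1 (median 0.33): the receptor Notch1 (1.13), the ligand Dll3 (1.25), the glycosyltransferase Lfng (1.40), Dtx4 (1.26) and the targets Nrarp (1.88) and Hes5. The clustered protocadherins, cell recognition proteins of neurons, ran against the other neural lists, with 5 of 24 measured members past -1 and none past 1 (median -0.80). Their isoforms share exons, and how such reads were assigned is not given in the sources used here.

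As a list, retinoic acid targets were higher on day 6 in both genotypes, with a median response of 3.53 in wild-type and 4.12 in knockout cells. Of the 23 genes 3 were past 1 and 4 past -1. Not every member rose: the response was -1.82 and -2.45 for Rarg and 0.19 and 0.26 for Rara in wild-type and knockout cells. Cyp26a1, which degrades retinoic acid, stood at 0.336 and 152 scaled FPKM in wild-type and at 0.178 and 249 in knockout cells (0.89). Crabp2 had a difference of -0.00 (-0.23 to 0.22). Rarb, a receptor gene induced by its own ligand, stood at 55.0 and 33.7 on day 6 in wild-type and knockout cells (-0.75). Nr2f2, a nuclear receptor of mesenchyme and vessels, stood at 44.5 and 11.1 (-1.96) and Aldh1a2, which makes retinoic acid in mesoderm, at 9.47 and 2.02 (-1.90). Stra8 was the member furthest above 1. The list's median was -0.31 after scaling and 0.12 with the columns as deposited, so it has no settled direction.

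The differences of Hox genes varied along the HoxB cluster. Hox genes pattern the body axis, with higher numbers expressed more posteriorly. Of 15 measured genes of paralogue groups 1 to 5, 2 were past 1 and 1 past -1 (median 0.11), and of 7 measured genes of groups 6 to 13, 3 were past 1 and none past -1 (median 0.97). The order along HoxB ran from Hoxb1 (-1.34) through Hoxb2 (0.47), Hoxb3 (0.32) and Hoxb4 (0.02) to Hoxb5 (1.21), Hoxb6 (2.78), Hoxb7 (1.90), Hoxb8 (2.43) and Hoxb9 (0.97), and Hoxb13, the most posterior, lay at -0.62, so the differences did not rise with position throughout. Hoxb1 was listed at 0 on day 0 in both genotypes and stood at 21.8 in WT_NP and 7.96 in DKO_NP. Hoxb6 was listed at 0 on day 0 in both genotypes and stood at 4.55 in WT_NP and 37.1 in DKO_NP. Hoxb8 stood at 1.95 in WT_NP and 14.9 in DKO_NP and was under 0.05 on day 0. Hoxb7 and Hoxb9 reached 1 FPKM in DKO_NP alone and were thus counted only through the library in which they were high. Hoxd4 (1.50) was the other member past 1 of the lower groups. Cdx1, a regulator of posterior Hox genes, stood at 1.40 and 4.31 on day 6 in wild-type and knockout cells (1.16), whereas Cdx2 stood at 3.71 and 0.695 (-1.31).

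**Figure D4:**
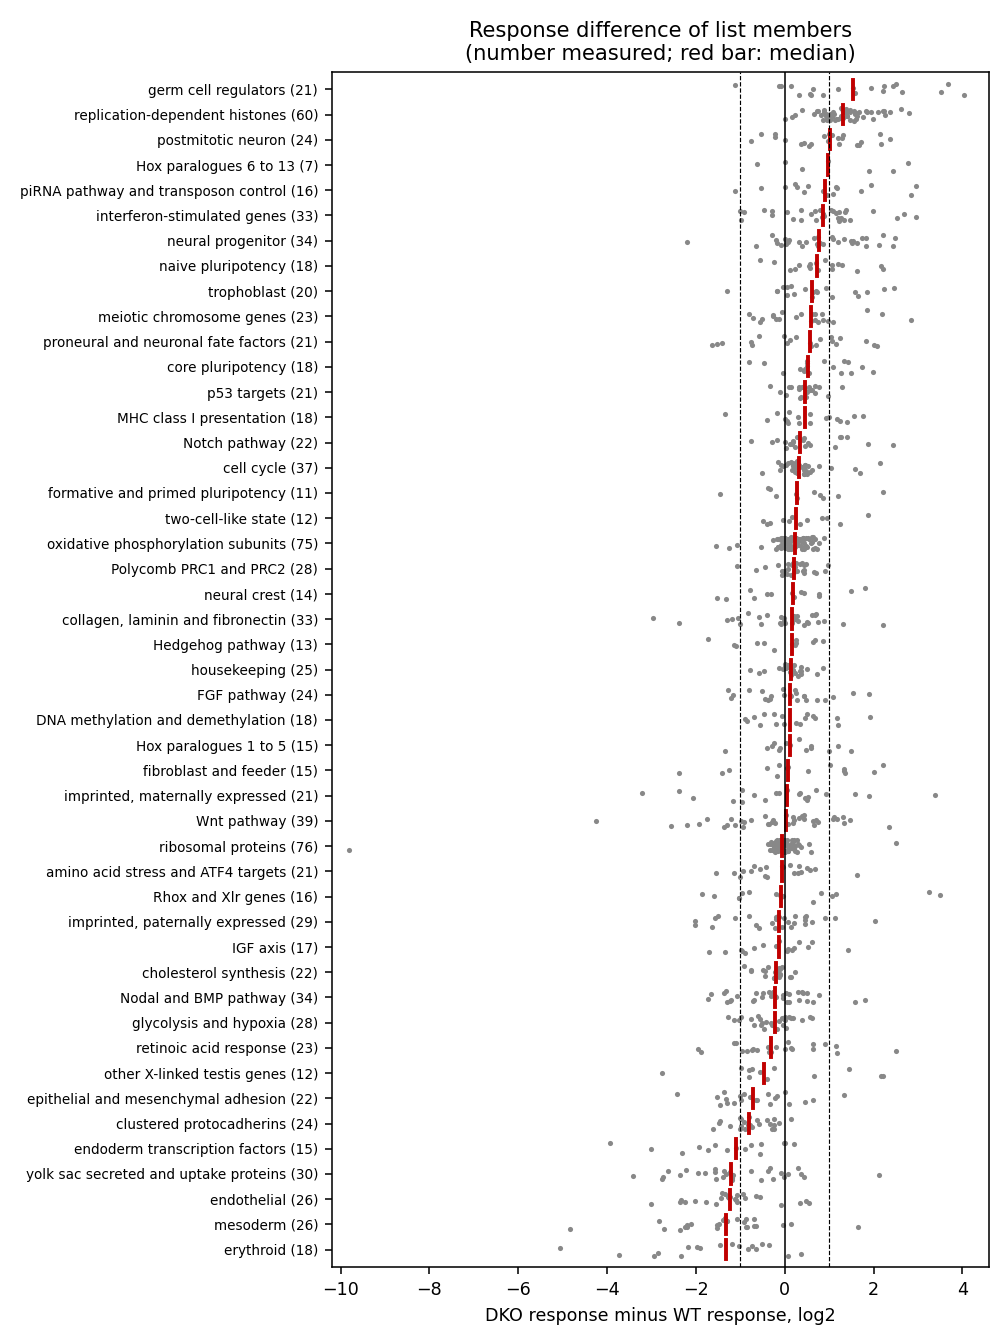
Response difference of every measured member of each of the 47 gene lists (grey points, spread vertically only to separate them), with the number measured in brackets and the list median as a red bar; dashed lines mark 1 and -1. Medians run from 1.53 for germ cell regulators, a list that also holds Rpl10l, Tuba3a and Tuba3b, to -1.33 for erythroid genes. The far point at the left of the ribosomal protein list is Rpl26.

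Genes of endoderm, mesoderm, vessels and blood had the lowest medians of all lists. Some members, such as Cdx2 and Foxf1a, reached 1 FPKM in WT_NP alone. They were thus counted only through the library in which they were high, and the counts and medians of these lists include them. Among 15 measured endoderm transcription factors 8 were past -1 and none past 1 (median -1.11). Gata4, a zinc finger factor of primitive endoderm and heart, stood at 1.28 and 45.3 scaled FPKM in wild-type cells and at 0.395 and 0.858 in knockout cells (difference -3.93, -4.20 to -3.66). Gata6 stood at 0.613 and 34.7 against 0.344 and 2.69 (-3.01). Hnf4a, a regulator of visceral endoderm and liver, stood at 0.696 and 3.10 against 1.63 and 0.278 (-2.31). Foxa2 stood at 0.0501 and 11.1 against 0.0486 and 2.67 (-1.72). Sox17, which also marks endoderm, did not follow, at 6.63 and 6.41 on day 6 (0.01, -0.21 to 0.22). Of 30 measured secreted and uptake proteins of the yolk sac 18 were past -1 and 1 past 1 (median -1.21). Rbp4, the retinol carrier of plasma, stood at 3.59 and 48.4 against 3.92 and 6.79 (-2.77). Ttr was listed at 0 on day 0 in both genotypes and stood at 24.9 and 2.84 on day 6 (-2.75). Apolipoprotein genes were past -1 as well: Apoa1 at 52.7 and 8.54 on day 6 (-2.22), Apob at 15.4 and 2.01 (-2.36) and Apom (-2.64), which was already higher in DKO_ES. Alpha-fetoprotein (Afp) stood at 9.21 and 7.47 on day 6 (-0.27) and the uptake receptor gene Lrp2 had a difference of -0.08, so these 2 yolk sac genes lay apart from the rest. Trf, the iron carrier transferrin, was on the other side (2.12). Serpinf2, an inhibitor of plasmin that is made in liver, stood at 0.0242 and 39.8 against 0.0470 and 1.51 (-4.05, -4.29 to -3.82).

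Mesoderm genes behaved alike. Of 26 measured members 16 were past -1 and 1 past 1 (median -1.32, with a median response of 1.94 in wild-type and 0.51 in knockout cells). Foxf1a, a factor of lateral plate mesoderm, was listed at 0 in WT_ES and stood at 41.8 in WT_NP, 0.0544 in DKO_ES and 0.584 in DKO_NP (-4.83). Pdgfra, a growth factor receptor of mesenchyme, stood at 0.463 and 20.2 against 0.243 and 1.51 (-2.84). Osr1 stood at 11.3 and 0.768 on day 6 (-2.73), Tbx20 at 7.38 and 0.260 (-2.36), Tcf21 at 4.50 and 0.150 (-2.19), Tbx5 at 3.60 and 0.103 (-2.11) and Foxc2 at 9.97 and 1.21 (-2.21). These transcription factors of heart, kidney and mesenchyme were named because their differences were past 2 in size. Their low levels in DKO_NP largely follow from that choice. Hand1 had a difference of -0.04, and Tcf15, a gene of somites that stem cells also express, one of 1.65. Aplnr, a receptor of early mesoderm, stood at 0.0574 and 13.3 against 0.0139 and 0.688 (-3.03).

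Endothelial genes were past -1 for 18 of 26 measured members and past 1 for none (median -1.24). Etv2, a factor at the root of the vessel and blood lineages, stood at 1.09 and 4.66 against 4.32 and 0.776 (-3.02). It was thus higher on day 6 in wild-type cells and lower in knockout cells. Kdr, the main receptor for vascular endothelial growth factor, stood at 0.239 and 20.2 against 1.01 and 6.22 (-2.25). Tal1, a regulator of blood formation, stood at 0.853 and 5.25 against 2.32 and 1.21 (-2.34). Ramp2 (-2.35) and the tight junction gene Cldn5 (-2.02) were higher in DKO_ES than in WT_ES and lower in DKO_NP than in WT_NP. The junction gene Cdh5, at 11.2 and 5.81 on day 6, had a difference of -0.65, and Pecam1, which stem cells also express, one of 0.56. Of 18 measured erythroid genes 11 were past -1 and none past 1 (median -1.33). The embryonic globin Hbb-bh1 was listed at 0 in WT_ES and stood at 489 in WT_NP, 0.115 in DKO_ES and 15.3 in DKO_NP (-5.07, -5.46 to -4.68). Hba-x and Hbb-y were listed at 0 on day 0 in both genotypes, and stood at 361 and 288 in WT_NP and at 26.2 and 38.8 in DKO_NP. Alas2, the first enzyme of red cell heme synthesis, stood at 9.93 and 1.24 on day 6 (-2.18). Globin RNA was therefore still present in the knockout culture, at a lower level. Related globin genes share sequence, and the split of their reads is uncertain.

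Trophoblast genes had a median on the other side. Of 20 measured members 6 were past 1 and 1 past -1 (median 0.62). Their summed level was 221 and 878 scaled FPKM in wild-type cells on day 0 and day 6, and 167 and 690 in knockout cells. The list's total thus did not part as its median did, and the median genotype difference on day 6 was 0.19. Plac1, a placental gene on the X chromosome, stood at 0.223 and 1.66 scaled FPKM in wild-type cells and at 0.378 and 15.5 in knockout cells (2.46). Esx1, a placental homeobox gene, stood at 1.66 and 0.930 against 1.64 and 5.94 (1.86), and Krt7 at 4.95 and 14.9 against 3.18 and 34.1 (1.65). Cdx2 was the member past -1, and 4 of the 20 members lay below 0. The prolactin-family neighbours Prl6a1, Prl2b1, Prl7d1 and Prl2a1 on chromosome 13, genes of the placenta, were also past 1 (1.02, 1.70, 1.02 and 1.98). Gata3 (0.15), Elf5 (0.94), Eomes (0.21) and Hand1 lay inside the limits.

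Imprinted genes, which are expressed from 1 parental copy under the control of DNA methylation, showed large differences in both directions. Not every cluster moved as 1. Among 21 maternally expressed genes 3 were past 1 and 4 past -1 (median 0.05), and among 29 paternally expressed genes 2 were past 1 and 6 past -1 (median -0.13). Phlda2, Slc22a18 and Cdkn1c lie side by side on chromosome 7. Phlda2, which limits placental growth, stood at 108 and 7.10 scaled FPKM in wild-type cells and at 106 and 81.9 in knockout cells (3.39, 3.18 to 3.59). Cdkn1c, a cyclin-dependent kinase inhibitor, stood at 20.4 and 26.2 against 22.9 and 89.4 (1.57), and Slc22a18 at 3.84 and 0.712 against 4.88 and 6.70 (1.89). The genotypes were alike on day 0 for all 3 and parted on day 6. Kcnq1ot1, the noncoding RNA of that domain from the other parental copy, was higher on day 6 in wild-type cells only (-1.49; 8.05 and 7.04 in knockout cells). At the Dlk1 and Dio3 domain the noncoding RNA Meg3 stood at 89.3 and 296 against 5.72 and 1.40 (-3.20), Rian at 143 and 264 against 7.75 and 2.87 (-2.06), and Mirg at 14.2 and 28.4 against 0.682 and 0.458 (-1.16). These transcripts were already far lower in DKO_ES, and their gap was wider on day 6. Rtl1 of the same domain was also past -1 (-1.13). Dlk1 (0.45, 0.26 to 0.64) and Dio3 (0.47, 0.05 to 0.89) went the other way, inside the limits. Zim1 (-2.38), Peg3 (-2.03) and Usp29 (-1.64) are neighbours on chromosome 7. Zim1 and Peg3 were higher on day 6 in both genotypes, and less so in knockout cells. Peg3 stood at 13.1 and 284 in wild-type and at 20.8 and 107 in knockout cells. Usp29 was higher on day 6 in wild-type cells and little changed in knockout cells (responses of 1.79 and 0.15). Airn, the noncoding RNA that runs against Igf2r, stood at 23.4 and 4.48 on day 6 (-2.02) and Igf2r at 78.7 and 49.9 (-0.95). Strand-specific counting is not stated, so overlapping transcripts such as these 2 cannot be told apart with certainty. H19 (0.52) and Igf2 (-0.13) responded alike in the 2 genotypes to within 2-fold. Ins2 was listed at 0 on day 0 and stood at 3.87 in DKO_NP against a deposited 0.134 FPKM in WT_NP (2.02).

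**Figure D5:**
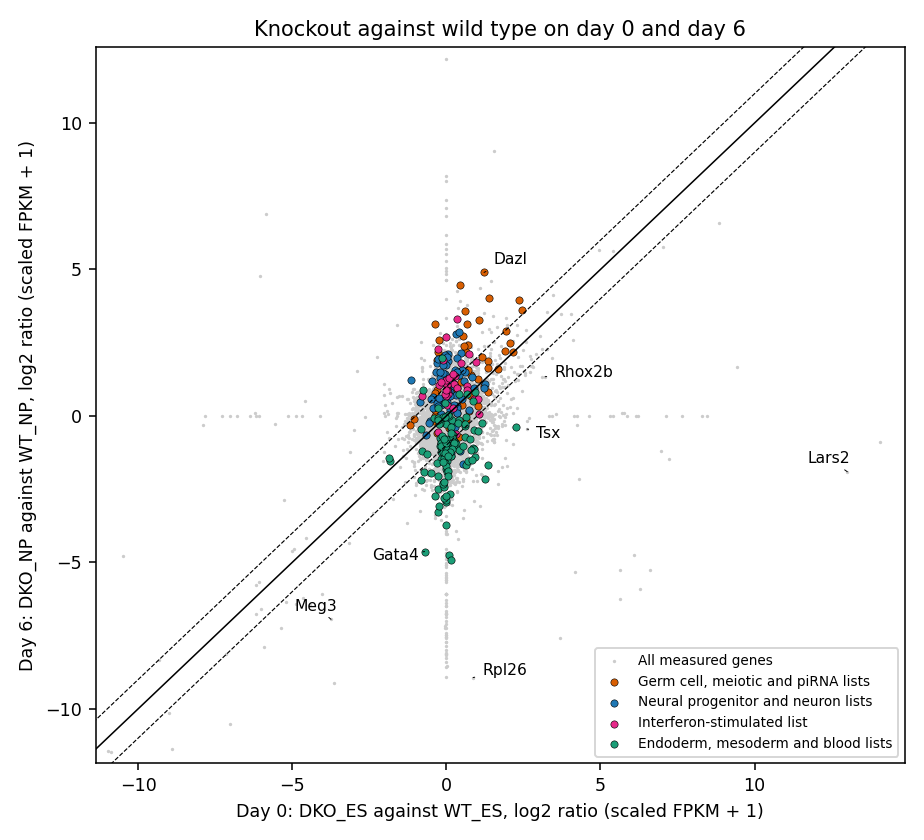
Knockout against wild type on day 0 (x axis) and on day 6 (y axis), both as log2 ratios of scaled FPKM + 1, for the genes and list groups of the plot of responses; 1 library per condition. The distance above or below the solid line is the response difference and the dashed lines mark 1 and -1. The endoderm, mesoderm and blood lists have medians near 0 on day 0 and below 0 on day 6, though single members depart from this. Meg3 is low on both days.

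Wnt ligands, receptors and inhibitors were each found on both sides. In the Wnt pathway 7 of 39 measured genes were past 1 and 9 past -1 (median 0.03). The shares of all genes were 4.31% and 8.81%, for this and the other pathways here. Sfrp5, a secreted Wnt inhibitor of foregut endoderm, stood at 1.05 and 59.6 scaled FPKM in wild-type cells and at 1.57 and 2.95 in knockout cells (-4.26, -4.65 to -3.88). The receptor Fzd4, prominent in vessels, stood at 1.74 and 34.5 against 2.48 and 6.61 (-2.56), and the receptor Fzd10, a gene of the dorsal neural tube, at 4.47 and 5.20 against 4.14 and 28.5 (2.34). The ligands Wnt3a (1.34) and Wnt1 (1.11) and the ligand Wnt2 (-2.20) were on opposite sides, as were Sfrp5 and the related secreted protein gene Sfrp2 (1.47). In the Nodal and BMP pathway 2 of 34 were past 1 and 8 past -1 (median -0.22). The ligands Bmp2 (-1.73), Bmp5 (-1.67) and Bmp4 (-1.07), the target Id2 (-1.31) and the inhibitory Smad6 (-1.21) were on the lower side, and Lefty1 (1.57) and the homeobox gene Msx1 (1.80) on the higher side. For the FGF pathway 3 of 24 were past each limit (median 0.12). The Hedgehog list had 3 of 13 past -1 (median 0.16): the ligand Ihh (-1.09), the receptor Ptch1 (-1.15) and Foxa2. The medians of the Wnt, BMP, FGF and Hedgehog lists are smaller than the shift that scaling makes and carry no direction.

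Extracellular matrix genes were uneven too. Of 33 measured collagen, laminin and fibronectin genes 2 were past 1 and 6 past -1 (median 0.17). These are 6.06% and 18.2%, beside 4.31% and 8.81% of all genes, so the share past 1 was near that of all genes. Col3a1, a fibrillar collagen of soft tissue, stood at 0.854 and 32.1 against 0.0261 and 2.49 (-2.39). Col1a2, a subunit of type I collagen, stood at 3.96 and 9.29 against 0.444 and 12.8 (2.21), and its difference came from the lower day 0 level in DKO_ES. Of 22 epithelial and mesenchymal adhesion genes 8 were past -1 and 1 past 1 (median -0.72), including the mesenchymal cadherin Cdh11 (-2.43), Twist1 (-1.53), Snai2 (-1.31) and the epithelial regulator Grhl2 (-1.45). Among 15 measured genes of fibroblasts, the cell type of the feeder layer, 6 were past 1 and 3 past -1. Their summed level was 155 and 334 in wild-type cells on day 0 and day 6, and 69.7 and 299.7 in knockout cells, and the wild-type stem cell library thus held more than 2 times the level of the knockout one. S100a4 was listed at 0 on day 6 in both genotypes and stood at 4.90 and 0.475 on day 0. The part of feeder cells in these differences was not tested. Neighbouring matrix genes on chromosome 13 shared a direction: Ecm2, Aspn, Omd and Ogn (-1.52, -1.01, -2.21 and -1.56), and Edil3, Hapln1 and Vcan (-1.90, -1.28 and -1.04).

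Replication-dependent histone genes formed the most uniform list. All 60 measured members had a difference above 0, and 44 were past 1 (median 1.31). Their summed level was 20294 and 15087 scaled FPKM in wild-type cells on day 0 and day 6, and 12958 and 23000 in knockout cells. The list thus became lower in wild-type cells and higher in knockout cells, and the median genotype difference was -0.67 on day 0 and 0.62 on day 6. Hist1h2ak stood at 566 and 277 in wild-type and at 157 and 475 in knockout cells (2.62), Hist1h3e at 515 and 237 against 127 and 304 (2.37), and Hist1h2af at 119 and 39.7 against 32.1 and 76.5 (2.79). Hist1h2bn (0.01) was the lowest member. These transcripts lack a poly(A) tail, are made in S phase and include close copies. Cell cycle genes had a median of 0.33, with 4 of 37 past 1 and none past -1, and the proliferation marker Mki67 had a difference of 0.16. Ccnd1, the D-type cyclin, stood at 48.2 and 8.90 against 44.8 and 39.9 (2.15) and the inhibitor gene Cdkn2a at 9.22 and 3.29 against 10.7 and 14.9 (1.69). The part of S phase, RNA quality and library preparation in the histone values was not tested.

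After scaling, housekeeping and metabolic genes stayed near 0. None of 25 housekeeping genes was past either limit (median 0.14), with Actb and Gapdh at 0.02 each. Oxidative phosphorylation had 3 of 75 past -1 and none past 1 (median 0.22), glycolysis and hypoxia 3 of 28 past -1 and none past 1 (median -0.23), and cholesterol synthesis none of 22 on either side (median -0.21). The medians of the glycolysis and cholesterol lists were 0.27 each with the columns as deposited, so they have no settled direction. Those of the housekeeping and oxidative phosphorylation lists were then 0.65 and 0.71. The nearness of these lists to 0 thus depends on the scaling and is no separate check of it. Of 76 ribosomal protein genes 1 was past each limit. Rpl26 stood at 642 and 766 scaled FPKM in wild-type cells and at 1170 and 0.560 in knockout cells (-9.81). It has processed copies in the genome, and how their reads were assigned is not given in the sources used here. Lars2, a mitochondrial aminoacyl-tRNA synthetase gene, was listed at 0 in WT_ES and stood at 5487, 8261 and 1459 in the other libraries (-14.92), and Amd1, which has near-identical copies, at 33.9 and 0.133 against 44.6 and 13.5 (3.29). These 3 values are not described as responses. Beside 4.31% and 8.81% of all genes, the remaining lists had these members past a limit: 1 higher and none lower of 21 p53 targets, 1 and 3 of 21 amino acid stress genes, 1 and 2 of 17 genes of the IGF axis, 2 and 2 of 14 neural crest genes, 2 and 1 of 11 formative pluripotency genes, and 3 and none of 18 genes of DNA methylation and demethylation. The share past 1 was 14.3% for neural crest, 18.2% for formative pluripotency and 16.7% for DNA methylation genes, each from 2 or 3 genes. The DNA methylation genes past 1 include the targeted Dnmt3b itself (1.91).

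Position and level carried their own patterns. Among 14210 placed genes without small RNAs there were 26 runs of 3 or more neighbours past the same limit, 12 higher and 14 lower, and 7 were histone clusters. Besides those already named, the globin neighbours Hba-x, Hba-a1 and Hbq1a, the chromosome 4 neighbours Tal1, Pdzk1ip1 and Cyp4b1, and the chromosome 13 neighbours Serpinb9b, Serpinb9c and Serpinb9e (2.03, 1.06 and 1.84) formed runs. Chromosome 13 had 12.3% of its genes past 1, and 5.47% once histone and small RNA genes were left out. Chromosome 12 had 14.2% past -1, and 8.47% without them. The median difference went from -0.23 in the fifth of genes with the lowest mean level to 0.19 in the fifth with the highest, and the share past -1 from 15.1% to 7.10%, so a low gene was more often on the lower side.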

How the data were processed

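RNA-seq values for 4 libraries (WT_ES, WT_NP, DKO_ES, DKO_NP; 1 per group) came from the FPKM table the authors deposited. Per the labels' protocols, RNA was rRNA-depleted, prepared with TruSeq reagents and sequenced single-end. Bowtie, TopHat and mm9 are named in the submitters' processing notes, and neither the program that computed FPKM nor its annotation is named in these sources. Of the table, 18 rows with no symbol were left out, and all sample columns were mapped.

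Columns were scaled by median ratios, a pseudocount of 1 FPKM was added, and the 2 log2 responses were subtracted for genes at 1 FPKM or more in any library. Log2 differences therefore understate changes of low genes. A gene that reached 1 FPKM in 1 library alone was counted only through that library, which by itself favours 1 side of the difference. Approximate reads came from the steps of low FPKM values (2116 of 2331 low genes whole within 0.04 reads) and exon lengths found for 22788 symbols. They gave 95% intervals after adding 0.5 reads. The method was checked on simulated data. The 47 gene lists and the genes were chosen with earlier results of these data known. Named genes were Dnmt3a, Dnmt3b, the 15 highest and lowest at 5 FPKM or more without a 0, the 5 highest and lowest with a 0, the top 3 of strongly moving lists and germline, neural, mesendoderm and imprinted members past 2. Other members named, and neighbours in runs, were chosen after their values were seen. Of the list symbols, 12 were matched under another name and 13 were not found. Promoters came from RefSeq (GRCm38.p6). A comparison of promoter CpG content between gene sets was planned and is void, because the table covers 71.6% of the higher and 62.3% of the lower genes, under the 80% needed. Python 3.11.15, NumPy 2.4.6, pandas 2.3.3 and matplotlib 3.10.9 were used.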

Additional observations from a re-analysis of the deposited data

Results flagged for a closer look

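For 12 named genes the values changed 2-fold or more in opposite directions in the 2 genotypes. With 1 library per group these differences were not tested. Of the germ cell genes, Sohlh2 (4.04), Dazl (3.68) and Dmrt1 (2.44) became lower on day 6 in wild-type and higher in knockout cells, as did the neuron gene Rtn1 (2.37) and the histone genes Hist1h2af (2.79), Hist1h2ak (2.62) and Hist1h3e (2.37). The reverse was seen for the endoderm factor Hnf4a (-2.31), the vessel and blood factor Etv2 (-3.02), the imprinted RNA Meg3 (-3.20), the pancreatic and yolk sac inhibitor Spink3 (-3.41) and, as a value only, for Lars2 (-14.92), whose wild-type change rests on a 0 listed in WT_ES and is not read as a response.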

How the results depend on the processing

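No paired analysis was possible because each group holds 1 library, and no library could be left out. Against 634 genes at 1 or more, the count was 1735 without scaling, 1082 with a pseudocount of 0.1 FPKM, 255 with 5 FPKM and 301 when 1 FPKM was required in all 4 libraries. Against 1296 genes at -1 or less it was 709 without scaling, 510 with a pseudocount of 5 FPKM, 771 with 5 FPKM required in any library, 653 with 1 FPKM in all 4 and 857 without small RNA genes and unnamed models, an alternative chosen after seeing the data. Of the 47 list medians, 12 were 0.5 or more, against 25 without scaling and 3 with a pseudocount of 5 FPKM. No list median of 0.5 or more in size and none of the 110 genes named by the rule changed sign, where an alternative kept them, under these alternatives, upper-quartile scaling or centring by level. Other genes in the text with differences smaller in size than about 0.43 can change sign without scaling. Genes listed at 0 have differences set by the pseudocount, and low genes in the day 0 libraries rest on the fewest reads.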
